A study of Mus musculus with 6 samples.

Results

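Chemokines are small secreted or membrane-bound proteins that direct the movement of immune cells through receptors coupled to G proteins. In brain, most are made at low levels and are induced in microglia, astrocytes, endothelium and infiltrating leukocytes by cytokines acting through the transcription factors NF-kB and the interferon regulatory factors. The exception is Cx3cl1 (fractalkine), which neurons make constitutively and which signals to Cx3cr1 on microglia. Described here are 10 chemokine genes that are commonly followed in brain inflammation, Ccl2, Ccl3, Ccl4, Ccl5, Ccl12, Cxcl9, Cxcl10, Cxcl13, Cxcl16 and Cx3cl1. They were taken by symbol from the 29872 genes with a value in the deposited files, and all 10 were found.

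The libraries came from hippocampus of C57BL/6 J mice. In 3 libraries (shHepaCAM, genotype HepaCAM knockdown) an adeno-associated virus delivered to CA1 on both sides carried a short hairpin RNA against Hepacam, an adhesion molecule of astrocytes, and 3 further libraries (shControl, genotype WT) served as controls. Control libraries 1, 2 and 3 are the shControl replicates of those numbers, and knockdown libraries 1, 2 and 3 the shHepaCAM replicates. Age, the promoter driving the hairpin, the interval after injection and whether the control mice received a vector were not given in the labels. They also do not say that libraries came from separate mice, so p-values speak only of the variation among these 6 libraries, and that may be technical. Hepacam stood at 37.3, 33.4 and 35.9 RPKM (reads per kilobase of exon, scaled to library size) in control libraries 1, 2 and 3 and at 24.4, 22.6 and 20.9 RPKM in knockdown libraries 1, 2 and 3, a limma log2 change of -0.63 (SE 0.07, adjusted p = 0.00924; 0.0526 without shControl replicate 3).

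Library sizes lay between 14903196 and 17341840 reads. Tissue identity was checked with 7 hippocampal neuron markers, whose summed level was 485 to 504 RPKM in control and 370 to 468 RPKM in knockdown libraries. Of these, Snap25, a presynaptic fusion protein, fell by 0.70 (limma adjusted p = 0.0441) and 0 rose in limma. The limma-voom fit described below also called Snap25 lower (adjusted p = 0.00963). It called another of the 7, Wfs1, higher, with a log2 change of 0.64 (adjusted p = 0.0372). Libraries differed in choroid plexus content: Ttr, its leading transcript, was at 62.1 RPKM in shControl replicate 1 and 25.5 RPKM in shHepaCAM replicate 3 but between 1660 and 4190 RPKM in the other 4 libraries. Chemokine, receptor and list calls that were lost without both of these libraries are given below.

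Among the chemokines, 6 rose and 0 fell. Those were Ccl4, Ccl5, Cxcl10, Cxcl13, Cxcl16 and Cx3cl1, tested with limma on log2(RPKM + 1) over the 13864 genes averaging 1 RPKM or more, at a Benjamini-Hochberg adjusted p under 0.05. Over all genes in that test, 6.07% were called in either direction and 4.23% were called higher. Ccl3 and Ccl12 were tested and did not pass. Ccl2 and Cxcl9 lay under the filter, while Ccl4 and Cxcl13 passed it only because of their knockdown level, so the count of 6 among 8 tested members is a description. Whole reads, worked out from the RPKM values, were available for all 10 members in all 6 libraries. A second fit, limma-voom on these reads over 21728 genes with at least 10 reads in all, called 6 members higher (Ccl5, Cxcl9, Cxcl10, Cxcl13, Cxcl16 and Cx3cl1) and 0 lower, against 3.9% of all genes called higher. For 9 of the 10 members every knockdown library lay above every control library, the exception being Ccl12, and 17.8% of the 21728 genes had that pattern. In whole tissue, more cells of a type and more RNA per cell cannot be told apart.

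**Figure D1:**
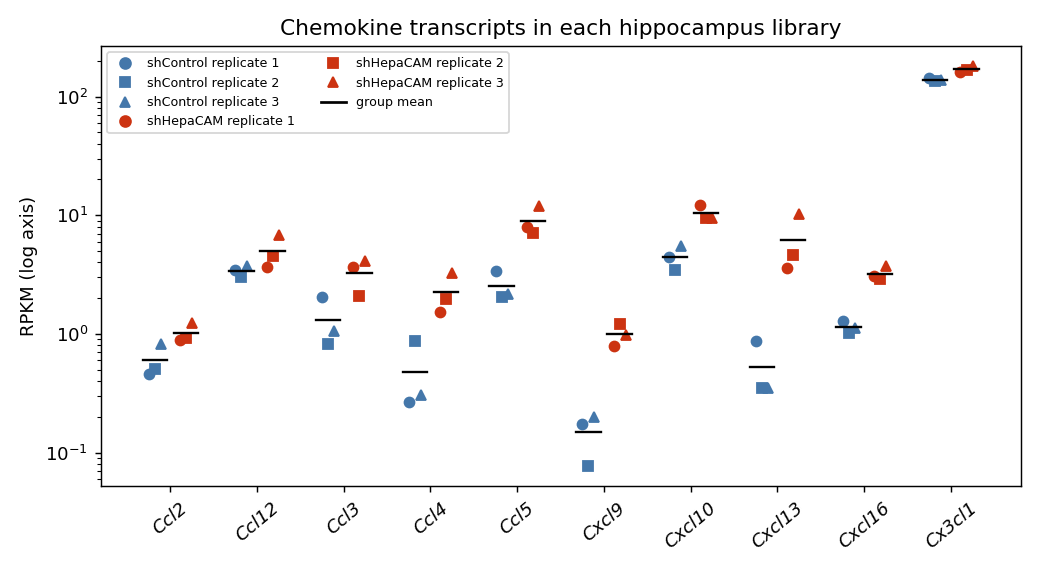
RPKM of the 10 chemokine transcripts in each library, on a log axis. Blue symbols are the 3 shControl libraries, red symbols the 3 shHepaCAM libraries, and black bars the group means. Cx3cl1 lies far above the rest at 134 to 181 RPKM, and only for Ccl12 do the groups overlap.

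**Figure D2:**
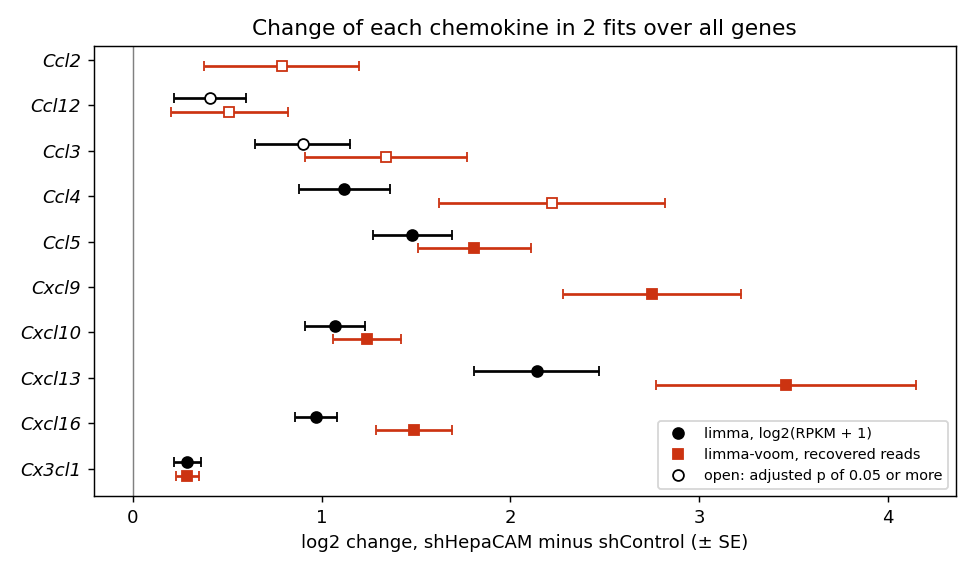
log2 change of each chemokine, shHepaCAM minus shControl, with its standard error, from limma on log2(RPKM + 1) (black circles, 8 members) and limma-voom on recovered reads (red squares, 10 members). Filled symbols passed an adjusted p of 0.05, and Ccl4 passed in the first fit but not in the second.

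Ccl2 and Ccl12 are ligands of Ccr2 that draw monocytes out of blood. Ccl2 was among the lowest members: 0.462, 0.507 and 0.825 RPKM in control libraries 1, 2 and 3 rested on 9, 10 and 14 reads, and 0.889, 0.926 and 1.23 RPKM in knockdown libraries 1, 2 and 3 on 16, 17 and 23 reads. The highest control and the lowest knockdown library nearly met. Reads per depth were 1.73 times higher in knockdown, with a 95% counting interval of 1.11 to 2.75, and limma-voom gave a log2 change of 0.79 (SE 0.41, adjusted p = 0.315). Counting intervals here and below cover the sampling of reads only, not the spread between libraries. Ccl12 was at 3.48, 3.01 and 3.75 RPKM in the control and at 3.65, 4.5 and 6.82 RPKM in the knockdown libraries. Its groups overlapped, with shHepaCAM replicate 3 alone well above the controls (limma log2 change 0.41, SE 0.19, adjusted p = 0.23). Ccl2 was tested only in limma-voom and did not pass, and Ccl12 passed in neither fit.

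Ccl3, Ccl4 and Ccl5 are CC chemokines that draw T cells and macrophages, and Ccl3 and Ccl5 bind Ccr1. Ccl5, made mainly by cytotoxic T cells and by activated glia, stood at 3.41, 2.04 and 2.17 RPKM in control libraries 1, 2 and 3 and at 7.97, 7.04 and 11.9 RPKM in knockdown libraries 1, 2 and 3. All knockdown values were above all controls, and the means were 2.54 ± 0.756 and 8.96 ± 2.57 RPKM (SD, n = 3 each). Ccl5 rose by 1.48 (SE 0.21, limma adjusted p = 0.0141), with adjusted p-values of 0.0639 and 0.069 without shControl replicates 2 and 3. In limma-voom it rose by 1.81 (adjusted p = 0.00719), with 0.0518 and 0.0581 without the same libraries.

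Ccl4 was at 0.266, 0.874 and 0.305 RPKM in the control and 1.53, 1.97 and 3.24 RPKM in the knockdown libraries, on 3, 10 and 3 reads and on 16, 21 and 35 reads. Every knockdown library was above the controls, and the ratio of reads per depth was 4.59 (95% counting interval 2.65 to 8.46), or 7.95 without shControl replicate 2. The limma call was close to the threshold (log2 change 1.12, SE 0.24, adjusted p = 0.0419), and limma-voom did not call it (2.22, adjusted p = 0.0581). The limma call held only when knockdown library 1 was the one left out; the adjusted p-values were 0.113, 0.0742 and 0.14 without control library 1, 2 or 3 in turn and 0.0942 and 0.0922 without shHepaCAM replicates 2 and 3. Without both libraries low in Ttr the limma change was 0.81 (adjusted p = 0.16). Without shHepaCAM replicate 1, limma-voom did call Ccl4 (adjusted p = 0.0445). Ccl3 was at 2.06, 0.828 and 1.05 RPKM in the control and at 3.63, 2.1 and 4.14 RPKM in the knockdown libraries. Its highest control and lowest knockdown values nearly met, and it did not pass in limma (log2 change 0.90, SE 0.25, adjusted p = 0.0851) or in limma-voom (1.34, adjusted p = 0.102). In limma-voom without shHepaCAM replicate 2, the library nearest to the controls, Ccl3 passed (1.64, adjusted p = 0.0471). Without shControl replicate 1, its ratio of reads per depth was 3.54 in place of 2.49.

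Cxcl9 and Cxcl10 are interferon-induced ligands of Cxcr3, the receptor of activated T cells and natural killer cells. Cxcl10 was the second most abundant member, at 4.41, 3.43 and 5.51 RPKM in control libraries 1, 2 and 3 and at 12.2, 9.41 and 9.49 RPKM in knockdown libraries 1, 2 and 3. The groups did not overlap, and unlike most members its highest value was in shHepaCAM replicate 1. It rose by 1.07 (SE 0.16, limma adjusted p = 0.0166), with adjusted p-values of 0.0531 and 0.0513 without shControl replicates 1 and 2 and of 0.085 without both libraries low in Ttr. In limma-voom the change was 1.24 (adjusted p = 0.00377). Art3 lies on the opposite strand and shares 133 exon bases with Cxcl10. Whether strand was used in counting is not stated, so reads in those bases cannot be told apart; Art3 itself averaged 0.994 RPKM in control and 1.19 RPKM in knockdown libraries.

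Cxcl9 was the lowest member in control tissue. It had 0.174, 0.0765 and 0.2 RPKM in the control libraries, from 9, 4 and 9 reads, and 0.797, 1.21 and 0.971 RPKM in the knockdown libraries, from 38, 59 and 48 reads. No knockdown library approached the controls, and reads per depth were 6.73 times higher (95% counting interval 4.28 to 11.1). Limma-voom gave a log2 change of 2.75 (SE 0.47, adjusted p = 0.00822), and it kept the call with any 1 library left out (adjusted p of at most 0.0497). With all genes kept in limma on log2(RPKM + 1), a scale that compresses so low a gene, it had 0.79 (adjusted p = 0.0503). Permuting the libraries (exact, two-sided) gave p = 0.1, as for 9 of the 10 members, the smallest p that 3 libraries against 3 allow; for Ccl12 it gave 0.2.

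The 250 bases before the transcription start are shown for the CXC members that were called and have an entry, and for Cx3cl1 as the abundant neuronal member, because these genes differ in level and in size of change while their proximal promoters can be compared directly. Sequences are from RefSeq on build GRCm38.p6, for which 6 of the 10 members had an entry (not Ccl2, Ccl4, Ccl5 and Cxcl16). They are written 5′ to 3′ on the gene's strand: Cxcl10 at chr5:92348890-92349139 (minus strand), Cxcl9 at chr5:92328080-92328329 (minus strand), Cxcl13 at chr5:95956689-95956938 (plus strand) and Cx3cl1 at chr8:94771930-94772179 (plus strand). Capitals mark matches to an interferon response element (GAAA, any 2 bases, GAAA) or an NF-kB element (GGG, any 3 bases, TTCC).
Cxcl10: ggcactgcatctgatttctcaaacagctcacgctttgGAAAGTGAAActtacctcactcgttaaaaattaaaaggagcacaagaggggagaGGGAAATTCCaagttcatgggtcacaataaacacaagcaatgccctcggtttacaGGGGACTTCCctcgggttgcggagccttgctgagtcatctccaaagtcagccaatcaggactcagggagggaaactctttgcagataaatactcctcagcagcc
Cxcl9: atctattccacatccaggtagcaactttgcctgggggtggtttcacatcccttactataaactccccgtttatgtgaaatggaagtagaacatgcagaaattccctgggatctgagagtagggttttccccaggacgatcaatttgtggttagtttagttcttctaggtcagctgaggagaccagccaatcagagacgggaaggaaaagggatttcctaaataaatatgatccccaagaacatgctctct
Cxcl13: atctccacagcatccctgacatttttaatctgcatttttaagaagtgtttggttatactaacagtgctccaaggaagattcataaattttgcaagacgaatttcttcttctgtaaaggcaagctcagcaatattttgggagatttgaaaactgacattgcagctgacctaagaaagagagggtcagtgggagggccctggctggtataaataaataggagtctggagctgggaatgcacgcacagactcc
Cx3cl1: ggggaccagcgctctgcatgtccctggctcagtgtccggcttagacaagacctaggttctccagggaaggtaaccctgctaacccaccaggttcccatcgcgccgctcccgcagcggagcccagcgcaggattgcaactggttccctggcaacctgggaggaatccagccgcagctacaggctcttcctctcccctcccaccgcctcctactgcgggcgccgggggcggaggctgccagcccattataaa

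Cxcl10 held 1 interferon response element, whose first base lies 213 bases before the start, and 2 NF-kB elements, at 159 and 104 bases. Both motifs were searched on both strands, and their forms were chosen after the sequences were seen. Over all 32851 promoters of the table, 2.98% held the interferon response element and 4.65% the NF-kB element in the same window. The other 5 members with an entry held neither. A match describes letters and not a bound site, and a lack of one says only that these letters are not in this window.

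Cxcl13, the ligand of Cxcr5 that gathers B cells into follicles, had the largest fold difference of the 10. It was at 0.864, 0.351 and 0.35 RPKM in control libraries 1, 2 and 3, on 17, 7 and 6 reads, and at 3.57, 4.63 and 10.2 RPKM in knockdown libraries 1, 2 and 3, on 65, 86 and 193 reads. The groups were well apart, and shHepaCAM replicate 3 held more than the sum of the other 2 knockdown libraries. Reads per depth were 11.7 times higher (95% counting interval 8.05 to 17.6), 17.7 times without shControl replicate 1 and 7.77 times without shHepaCAM replicate 3. In limma Cxcl13 rose by 2.14 (SE 0.33, adjusted p = 0.0184), with adjusted p-values of 0.0759 and 0.0821 without shControl replicates 2 and 3, and in limma-voom by 3.46 (adjusted p = 0.0174), a call that ended without any 1 control library (0.0554, 0.0913 and 0.0997).

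Cxcl16 is made as a membrane protein that binds Cxcr6 on T cells and also takes up oxidised lipoproteins. It was at 1.28, 1.01 and 1.13 RPKM in the control and at 3.06, 2.89 and 3.7 RPKM in the knockdown libraries, a tight pair of groups with no overlap. The means were 1.14 ± 0.133 and 3.21 ± 0.425 RPKM (SD, n = 3 each). Cxcl16 rose by 0.97 (SE 0.11, limma adjusted p = 0.00924) and kept its call with any 1 library left out, in limma and in limma-voom, but not in limma without both libraries low in Ttr (adjusted p = 0.0573). Zmynd15, on the opposite strand, shares 552 exon bases with it, and its reads there cannot be told apart. Zmynd15 averaged 0.262 RPKM in control and 0.687 RPKM in knockdown libraries (limma-voom log2 change 1.25, adjusted p = 0.129), and its part in the Cxcl16 value was not tested.

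Cx3cl1 was by far the most abundant member, at 142, 134 and 139 RPKM in control libraries 1, 2 and 3 and 160, 168 and 181 RPKM in knockdown libraries 1, 2 and 3. The groups did not overlap, but the difference was the smallest of the called members, a rise of 0.29 (SE 0.07, limma adjusted p = 0.048). Scaling libraries to their median gene gave 0.20 and an adjusted p of 0.183, where the median of all genes moved from 0.05 to -0.03, and quantile normalization gave 0.31. As for Ccl4, the call held only when knockdown library 1 was the one left out, with adjusted p-values of 0.114, 0.172 and 0.165 without control library 1, 2 or 3 in turn and of 0.0773 and 0.106 without shHepaCAM replicates 2 and 3, and of 0.192 without both libraries low in Ttr. In limma-voom it rose by 0.29 (adjusted p = 0.0219), which was lost without any 1 control library (adjusted p of 0.0603, 0.127 and 0.119) and without shHepaCAM replicate 3 (0.0585). In length-scaled levels Cx3cl1 made up 89.7% to 91.7% of the summed RPKM of the 10 members in control and 77.8% to 82.9% in knockdown libraries. The other 9 members together went from 12.1 to 16.4 RPKM in control libraries to 34.7 to 51.7 RPKM in knockdown libraries.

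The order of levels shifted among the less abundant members. In control libraries the order by mean RPKM was Cx3cl1, Cxcl10, Ccl12, Ccl5, Ccl3, Cxcl16, Ccl2, Cxcl13, Ccl4 and Cxcl9. In knockdown libraries it was Cx3cl1, Cxcl10, Ccl5, Cxcl13, Ccl12, Ccl3, Cxcl16, Ccl4, Ccl2 and Cxcl9. The ranges of neighbours overlapped except for Cx3cl1 and Cxcl10 in both groups, Cxcl16 and Ccl2 and also Ccl4 and Cxcl9 in control, and Ccl4 and Ccl2 in knockdown. Cxcl13 thus stood in the eighth place in control and the fourth in knockdown, while Ccl12 moved from the third to the fifth.

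Knockdown libraries were not equal for the members. shHepaCAM replicate 3 held the highest value of the knockdown group for 8 of the 10 (Ccl2, Ccl3, Ccl4, Ccl5, Ccl12, Cxcl13, Cxcl16 and Cx3cl1), while Cxcl9 was highest in shHepaCAM replicate 2 and Cxcl10 in shHepaCAM replicate 1. Of the 587 genes called higher in limma, 34.1% had their highest knockdown value in shHepaCAM replicate 3 and 56.4% in shHepaCAM replicate 2. Relative to the control mean, Cxcl13 reached 19.6 in shHepaCAM replicate 3 against 6.85 and 8.88 in replicates 1 and 2, and Ccl4 reached 6.72 against 3.18 and 4.1. For Cxcl10 the same ratios were 2.73, 2.11 and 2.13 in knockdown libraries 1, 2 and 3. That library is also the one lowest in Ttr, and the part of this in the chemokine values was not tested; with log2 Ttr as a covariate in limma, Ccl5, Cxcl10, Cxcl13 and Cxcl16 were called higher, and Ccl4 and Cx3cl1 had adjusted p-values of 0.0625 and 0.0573.

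**Figure D3:**
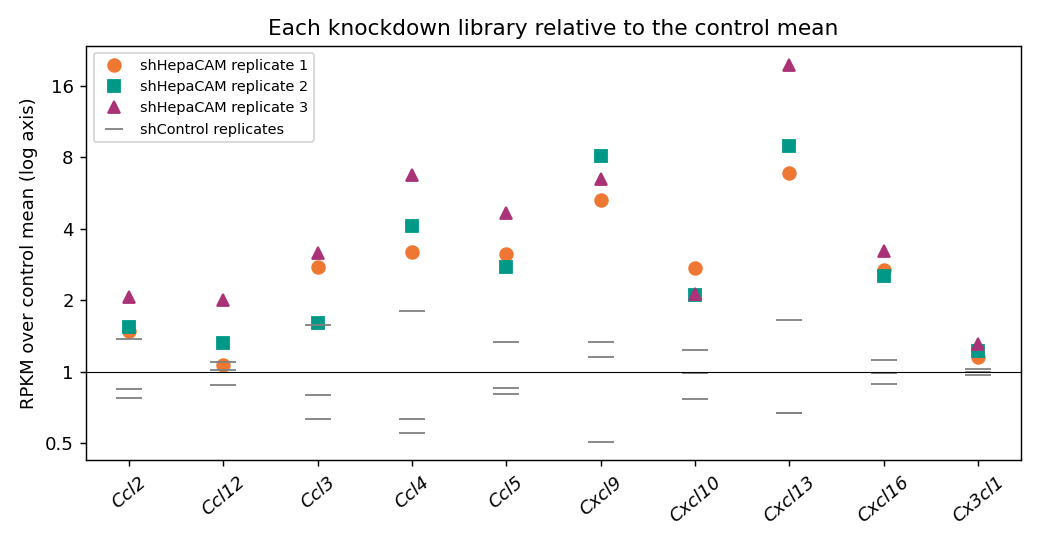
RPKM of each library divided by the mean of the 3 shControl libraries, on a log axis, for the 10 chemokines. Coloured symbols are the 3 shHepaCAM libraries and grey dashes the shControl libraries; shHepaCAM replicate 3 is highest for 8 of the 10, reaching 19.6 for Cxcl13.

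The receptors of these ligands were mostly scarce. Of 7 receptor genes, only Cx3cr1 averaged 1 RPKM or more, and it rose. Cx3cr1, a microglial receptor in brain, was at 14.9, 12.4 and 12.0 RPKM in the control and at 18.8, 23.7 and 23.7 RPKM in the knockdown libraries (limma log2 change 0.71, SE 0.11, adjusted p = 0.0206). All knockdown libraries were above the controls. It shares 78 exon bases with the antisense gene Gm33858. The limma call was lost without shControl replicates 2 and 3 (adjusted p = 0.0873 and 0.0925), without shHepaCAM replicates 2 and 3 (0.0604 and 0.0599) and without both libraries low in Ttr (0.0707). The limma-voom call (0.75, adjusted p = 0.00478) was kept with any 1 library left out, at adjusted p-values of 0.00174 to 0.0449.

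Cxcr3, the receptor of Cxcl9 and Cxcl10, had 1, 9 and 2 reads in control libraries 1, 2 and 3 and 30, 44 and 20 reads in knockdown libraries 1, 2 and 3. Reads per depth were 8.0 times higher, with a 95% counting interval of 4.37 to 16; without shControl replicate 2, which holds 9 of the 12 control reads, the ratio was 20.8. Cxcr6, the receptor of Cxcl16, had 6, 1 and 4 reads in control and 18, 27 and 21 reads in knockdown libraries, 6.13 times higher (3.21 to 12.9). In limma-voom these rose by 3.21 and 2.70 (adjusted p = 0.0326 and 0.0336).

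Neither limma-voom call held with each library left out in turn, though the log2 changes then ran from 2.58 to 3.98 for Cxcr3 and from 2.02 to 3.14 for Cxcr6. With control libraries 1, 2 and 3 left out in turn, the adjusted p of Cxcr3 was 0.107, 0.0907 and 0.153 and that of Cxcr6 0.071, 0.144 and 0.125. Without shHepaCAM replicate 2 they were 0.0548 and 0.0678, and Cxcr6 had 0.0554 without shHepaCAM replicate 3.

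The remaining receptors gave no call. Ccr2, the receptor of Ccl2 and Ccl12, had 5, 4 and 3 reads in control and 32, 11 and 10 reads in knockdown libraries (limma-voom log2 change 1.85, adjusted p = 0.159). Its knockdown values were all above its controls, with shHepaCAM replicate 1 the highest, and the ratio of reads per depth was 4.51 with it and 2.66 without it. Ccr1 had 8 reads in the controls together and 23 in the knockdown group (adjusted p = 0.235). Cxcr5, the receptor of Cxcl13 on B cells, had 0 reads in control libraries and 0, 1 and 2 reads in knockdown libraries 1, 2 and 3, and it shares 110 exon bases with Bcl9l on the opposite strand. Ccr3 had 0 reads in control and 2 in knockdown libraries, so neither could be compared at this depth.

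**Figure D4:**
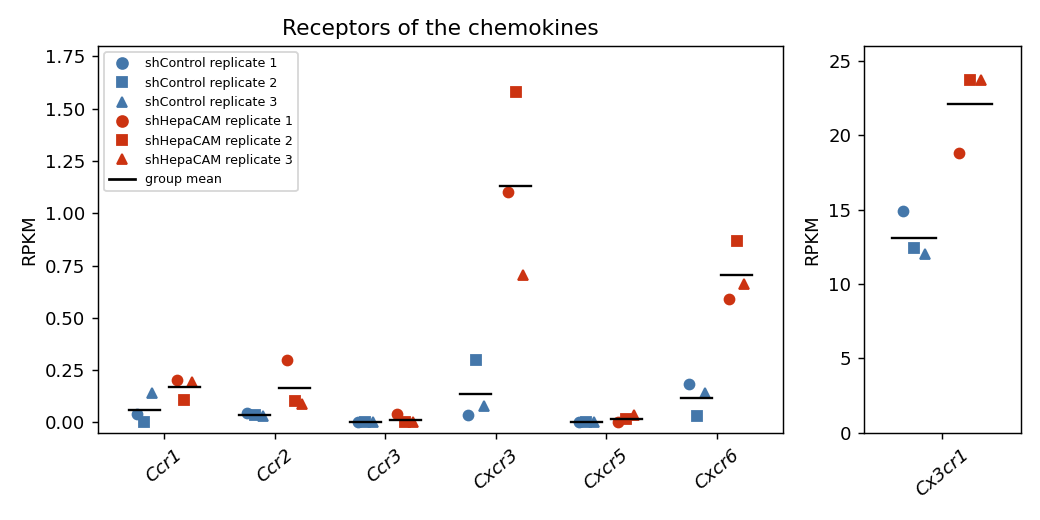
RPKM of the 7 receptor genes in each library, with Cx3cr1 on its own axis. Blue symbols are shControl, red symbols shHepaCAM libraries and black bars group means. Cxcr3, Cxcr6, Ccr2 and Cx3cr1 are higher in every knockdown library than in any control library, and Cxcr5 and Ccr3 are at or near 0.

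Other chemokines and receptors were looked at in the same way. Of 27 further chemokine genes listed, 22 had a row and 7 were tested in limma. Ccl6, a CC chemokine of mouse myeloid cells, rose by 1.07 (adjusted p = 0.0308), from 1.66 ± 0.633 to 4.51 ± 0.909 RPKM (SD, n = 3 each), and the other 6 did not pass. Nearest to passing was Ccl8, at 0.94 (adjusted p = 0.0503). The median log2 change of the 7 was 0.06, beside 0.05 over all genes tested. In limma-voom, Ccl6 and Ccl9 were called higher among 16 (median 0.37, beside 0.08 over all genes). The abundant Cxcl14 and Cxcl12, chemokines that resting brain expresses, had limma log2 changes of -0.05 and -0.14 and adjusted p-values of 0.784 and 0.33. Of 15 other chemokine receptors, 3 were tested and 0 passed, with Cxcr4 at 0.47 (adjusted p = 0.122) and the scavenger receptor Ackr3 at -0.21 (adjusted p = 0.33); 0 of 10 passed in limma-voom. The metalloproteases Adam10 and Adam17, which release Cxcl16 and Cx3cl1 from the membrane, were at -0.04 and 0.12 (adjusted p = 0.777 and 0.4), and the gelatinase Mmp2 at 0.47 (adjusted p = 0.118). None of the 3 tested proteases passed.

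Upstream, transcripts of the interferon and NF-kB pathways were higher in part. Over all genes, limma called 6.07% in either direction and 4.23% higher, with a median log2 change of 0.05, and limma-voom called 3.9% higher. In the interferon gamma pathway, 4 of 9 genes tested in limma rose, 1 fell and 4 did not pass, with a median of 0.41. Irf1 and Irf8, transcription factors induced by interferon gamma or present in microglia, rose by 0.69 and 0.70 (adjusted p = 0.00924 and 0.0137), and the guanylate-binding protein Gbp2 and the signal inhibitor Socs1 by 0.85 and 0.72 (adjusted p = 0.0467 and 0.0461). Limma-voom called 3 of 10 higher, without Socs1 (adjusted p = 0.06), and 1 lower. Ifngr2, a chain of the interferon gamma receptor, fell by 0.49 (adjusted p = 0.03). In the NF-kB list, 3 of 11 rose, 0 fell and 8 did not pass, with a median of 0.43: the pattern receptor Tlr2 by 0.94, the adhesion molecule Icam1 by 0.87 and the subunit Nfkb2 by 0.57 (adjusted p = 0.00579, 0.0138 and 0.0268). Limma-voom called 6 of 14 higher and 0 lower. Nfkbia, the feedback inhibitor, was at 0.15 (adjusted p = 0.585).

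Cytokines listed as upstream signals ranged widely in level. Of 12 listed, 10 had a row (all but Ifng and Ifnb1) and 3 were tested in limma. Of these, Ltb, a lymphotoxin chain of lymphocytes, rose by 1.11 (adjusted p = 0.016) and Tgfb1 by 0.57 (adjusted p = 0.024). Csf1, the growth factor of microglia and the most abundant of them at 7.69 to 11.3 RPKM, was at 0.32 (adjusted p = 0.0736). Tnf was at 0.08 to 0.34 RPKM in knockdown libraries and Il1b at 0.13 to 0.33 RPKM, and neither passed in limma-voom (adjusted p = 0.628 and 0.215). Of 10 genes of nucleic acid sensing tested, Irf9, an interferon regulatory factor, rose by 0.53 (adjusted p = 0.028) and 0 fell, with a median of 0.23. Limma-voom called 4 of 11 in that list higher (Ifih1, Tlr9, Irf7 and Irf9), beside 3.9% of all genes.

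Summed markers of T and NK cells, of B and plasma cells and of macrophages and monocytes were higher in every knockdown than in every control library. The 12 T and NK cell markers summed to 2.72 to 4.21 RPKM in control and to 10.9, 14.7 and 9.41 RPKM in knockdown libraries 1, 2 and 3. The lowest of these 3 sums was in the library that was highest for 8 of the 10 chemokines. For 10 of the 12 every knockdown library was above every control library, as for 17.8% of the 21728 genes with at least 10 reads. Some rested on few reads, such as Cd3e with 5 in the controls together. Limma-voom called 4 of the 11 it tested higher, beside 3.9% of all genes. Only 3 were tested in limma, and the T cell receptor constant chains Trbc2 and Trac rose by 0.96 and 1.10 (adjusted p = 0.0149 and 0.0228). The NK cell marker Ncr1 had 0 reads in all controls and 0, 0 and 3 reads in knockdown libraries 1, 2 and 3, and it was not tested. The 6 B and plasma cell markers summed to 1.19 to 1.68 RPKM in control and to 19.7, 67.4 and 93.9 RPKM in knockdown libraries 1, 2 and 3. Jchain alone gave 13.9, 60.2 and 78.5 RPKM of these knockdown sums. The share of all genes with the order of these sums was not worked out, so the chemokines are not counted by it. Summed microglia markers had that order too, and so did summed macrophage and monocyte markers, where Ly6c2 gave 2.98, 4.41 and 14.1 RPKM. Within the macrophage and monocyte list Ms4a7 had the same order, while Ccr2, Pf4 and Lyve1 ran the other way. Jchain and Mzb1, plasma cell genes, rose by 4.68 and 2.34 (adjusted p = 0.00924 each), and Ms4a1 (CD20) was at 0.1, 0.03 and 0.07 RPKM in the knockdown libraries. The part of these cells in the chemokine values was not tested.

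Microglia, monocytes and other cells differed among themselves. The 6 microglia markers summed to 76.4 to 91.9 RPKM in control and 106 to 115 RPKM in knockdown libraries, and Aif1 and Csf1r rose by 0.85 and 0.51 (adjusted p = 0.0236 and 0.0223) while 4 did not pass. P2ry12 and Tmem119, markers of resting microglia, were at 0.15 and 0.21 (adjusted p = 0.209 and 0.21). The 8 border macrophage and monocyte markers summed to 2.12 to 2.19 RPKM in control and 6.47, 7.69 and 16.4 RPKM in knockdown libraries, of which Ly6c2 alone gave 2.98, 4.41 and 14.1 RPKM (rise of 2.33, adjusted p = 0.0317). In limma-voom Ly6c2 and Ms4a7, which went from 0.32 to 1.03 RPKM, were called higher among the 8 (adjusted p = 0.0413 and 0.0256). Cd163 and Lyve1, border macrophage markers, had limma-voom adjusted p-values of 0.947 and 0.776. None of 5 astrocyte markers passed, with Aldoc at -0.25 and Gfap at 0.29 (adjusted p = 0.14 and 0.224). None of 4 endothelial markers passed, with Flt1 at -0.18 and Cdh5 at -0.20 (0.588 and 0.632). None of 2 tested neutrophil markers passed, with S100a8 at -0.52 and S100a9 at -0.13 (0.228 and 0.87). None of 5 choroid plexus markers passed, with Otx2 at -0.86 and Kl at -0.58 (0.498 and 0.67).

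Most calls of the genes listed beside the chemokines did not hold with each library left out in turn. Of the 20 called in limma, Tlr2 and Jchain kept the call with any 1 library left out, and the other 18 lost it at least once (Ccl6 and Socs1 each time). Ltb, Socs1, Ly6c2, Trac, Trbc2, Jchain and Mzb1 averaged under 1 RPKM in control and, like Ccl4 and Cxcl13, entered the limma test only through their knockdown level, so their limma calls are descriptions. All of these 7 but Socs1 were also called in limma-voom, where the filter was on reads in all libraries. Without both libraries low in Ttr, limma called 0 genes in the lists of other chemokines, upstream cytokines and hippocampal neurons. It also called 0 in those of interferon gamma, NF-kB and nucleic acid sensing. In that fit 1 gene was called higher in each list of microglia, of macrophages and monocytes, of T and NK cells and of B and plasma cells, and 1 choroid plexus marker was called lower.

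Genes most like the called members were found by Pearson correlation of log2(RPKM + 1) over the 6 libraries, which share the group difference, so the values are descriptions over 6 points. Only genes tested in limma were compared, leaving out predicted, clone-named, pseudogene, immunoglobulin and T cell receptor segment genes. Cxcl13 was most like Aif1 (r = 0.997) and Cx3cl1 (r = 0.995), Ccl4 like Cd300c2 (0.999) and Polr1c (0.998), Ccl5 like Eif4b (0.997) and P2rx4 (0.997), and Cxcl10 like Stx18 (0.995) and Zbp1 (0.992). Cxcl16 was most like Zfas1 (0.999) and Ckb (0.998), and Cx3cl1 like Polr3gl (0.999) and Rps20 (0.997).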

How the data were processed

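RNA from mouse hippocampus was sequenced in 6 libraries, 3 shControl and 3 shHepaCAM, grouped by their titles. The authors deposited 1 file of RPKM values per library. Per the submitters' processing notes, TopHat2 2.0.12, Bowtie2 2.0.6 and build mm39 were used; what the sources used here do not give is the read counter, its annotation, the use of strand and how multiply mapped reads were handled. Symbols, exon lengths and the exon bases shared between genes came from GENCODE M21, which is on another build. The shared bases therefore rest on the coordinates of that build. Of 29872 identifiers, 29805 matched.

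Each RPKM is a multiple of the value of a single read. With annotated lengths, 27390 genes gave whole reads (tolerance 0.01 read) in all libraries, and a step of their own resolved 2417 more (99.8% of genes in all). Depth was 14903196 to 17341840 reads. The tests were limma 3.58.1 with a mean-variance trend (R 4.3.3) on log2(RPKM + 1) and limma-voom on the reads, each fitted and adjusted over all genes kept; fold changes on log2(RPKM + 1) understate low genes. Both were tried on simulated reads with the same spread for every gene and no differences in choroid plexus content. That cannot speak for the calls made here. Genes at 10 reads or fewer carry wide counting error, and intervals and read numbers cover that error only.

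The members and lists were chosen with earlier results of these data known. Beside the members and Hepacam, the genes named are those past the threshold in each list, up to 6, or the 2 with the smallest p where 0 passed. Also named are, per called member, the 2 most correlated genes after the exclusions given with them. Some further list genes, Art3 and Zmynd15 were chosen after their values were seen. Listed genes with no row in the files were not analysed here. Some genes of the receptor and interferon lists are not reported here and are in no count of those lists. Alternatives were other scalings, filters, a pseudocount of 0.1, no trend, a replicate block, Ttr as a covariate and left-out libraries. Leaving out single libraries in limma-voom was added after the data were seen. Figures used matplotlib 3.10.9 in Python 3.11.15.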

Additional observations from a re-analysis of the deposited data

How the results depend on the processing

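All 10 members kept a positive change in every alternative run. The number of members called was 6 of 8 tested. It was 1 of 10 with no filter, 3 of 3 at a filter of 5 RPKM (fewer members tested), 3 with the replicate block and 2 without both libraries low in Ttr; the other scalings and fits gave 4 to 6. With single libraries left out it ranged from 1 (without shControl replicate 2) to 6 in limma and from 3 to 7 in limma-voom. Over all genes 842 were called, against 169 with no filter, 157 with the replicate block and 104 without both libraries low in Ttr, and 98 to 867 with single libraries left out. Quantile normalization called 731 (390 higher) and scaling to the median gene 683 (336 higher), against 587 higher without scaling. Hepacam changed by -0.54 without both libraries low in Ttr (adjusted p = 0.0695), and by -0.72 to -0.54 over all alternatives; with single libraries left out it was -0.68 to -0.58. Deviations of same-numbered libraries from their group means had correlations of -0.21, 0.02 and -0.14. With 3 libraries per group these cannot show whether the numbers pair libraries, and the labels do not state it. Among the members, the replicate block kept the calls of Ccl5, Cxcl10 and Cxcl16 only. Of the counts in the other lists, 96 of 272 moved by over 1.5 times. The causes were not tested. Depth limits Ccl2, Ccl4, Cxcl9 and most receptors, whose control libraries hold at most 14 reads each apart from Cx3cr1.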
